A study of Homo sapiens with 18 samples.

Results

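The genes that place, remove and read N6-methyladenosine (m6A), the most common internal mark of messenger RNA, were examined in 18 RNA-seq libraries from 3 human multiple myeloma cell lines. The set was 10 genes of the 62703 listed in the deposited tables, listed by name for their known role in m6A: the erasers FTO and ALKBH5, the writers METTL3, METTL14, WTAP and VIRMA, and the readers YTHDF1, YTHDF2, YTHDF3 and YTHDC1. FTO is also one of the genes that the study names as targets of the long non-coding RNA NEAT1. All 10 were read in every library and passed the filter of at least 10 reads in at least 1 library. The question put to the data was whether FTO moved with NEAT1, and whether the other members did so as well.

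The lines AMO1, NCI-H929 (labelled H929) and LP1 are established lines of malignant plasma cells. In each line, 3 libraries carry the label gN1E and 3 the label SCR. By the study's methods, cells took up the naked LNA-gapmeR g#N1_E, an antisense oligonucleotide against NEAT1, or the scrambled control g#SCR, at 5 µM for 48 h. The labels do not say whether replicates were separate cultures, so p-values measure the spread between these libraries, which may be technical.

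m6A is written in the nucleus by a complex in which METTL3 is the catalytic subunit, METTL14 its RNA-binding partner, and WTAP and VIRMA are scaffold proteins that guide it to RNA. FTO and ALKBH5 are dioxygenases that take the methyl group off again. YTH-domain proteins bind the mark: YTHDC1 in the nucleus, where it acts in splicing and export, and the YTHDF proteins in the cytoplasm, where YTHDF2 is known for speeding RNA decay.

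The labels and the files differ. The names inside all 18 tables exchange gN1E with SCR, and in 12 they exchange H929 with LP1. NEAT1 was at 75.7 to 90.8 CPM (counts per library total, with totals scaled by TMM) in the AMO1 libraries labelled SCR and at 473 to 553 CPM in those labelled gN1E, the opposite of what a gapmeR against it should give by the label. Its log2 fold change, gN1E minus SCR, was 2.66 (standard error, SE, 0.074) in AMO1, 2.74 (0.068) in the libraries labelled H929 and 2.14 (0.19) in those labelled LP1, with adjusted p-values of 5.1e-13, 3.11e-14 and 0.0269 (edgeR's quasi-likelihood test after Benjamini-Hochberg adjustment). The LP1 call held in 2 of the 6 fits that leave out 1 library, and was lost without SCR B, gN1E A, gN1E B or gN1E D, with an adjusted p of up to 0.176. Libraries are therefore called by their labels, and a gene that is higher under gN1E moved in the direction of NEAT1. The leading immunoglobulin segment of AMO1, IGHV3-23, stood at 1434 to 2110 CPM there, at 1032 to 1957 CPM in the libraries labelled H929 and at 0 in all 6 labelled LP1, so results in the libraries labelled AMO1 and H929 are not counted as independent of each other. Depth was 28061606 to 69937229 counts per library (median 53807613). All 7 plasma cell markers reached a mean of 5 CPM in every group, while of 7 markers of other cells CD3E reached it in each group and PECAM1 in those labelled H929 and LP1 (323 CPM in LP1). Of these 7, 4 to 6 were under 1 CPM in every library of a group. Their summed level was 23.5 to 26 CPM under SCR and 18.8 to 23.4 CPM under gN1E in AMO1, 15.1 to 16.5 and 15.4 to 15.8 CPM in H929, and 347 to 357 and 312 to 329 CPM in LP1. The summed plasma cell markers overlapped between labels in AMO1 and LP1, but in H929 they were at 14380 to 15360 CPM under SCR and 16280 to 17480 CPM under gN1E, without overlap. Most of that H929 sum was SDC1, with means of 11900 CPM under SCR and 13960 CPM under gN1E. MZB1 and SLAMF7 were also higher there without overlap, TNFRSF17 was lower without overlap (means of 124 and 113 CPM), and IRF4, PRDM1 and XBP1 overlapped. The part of either list in the results was not tested.

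Between the labels, FTO was the member that rose in both AMO1 and the libraries labelled H929, and YTHDF2 rose in the latter. In AMO1, 1 of the 10 members had an adjusted p under 0.05, where 2.06% of the 22933 genes tested did (1.64% higher under gN1E). In the libraries labelled H929, 2 members had, where 5.47% of all genes did (3.7% higher), and in those labelled LP1 none had, where 1.43% of all genes did. In LP1 no member had an unadjusted p under 0.05 in edgeR either, where 3018 of 23165 genes did. DESeq2 and limma-voom called 0 members there, and the smallest adjusted p was 0.616 (edgeR's quasi-likelihood test after Benjamini-Hochberg adjustment). The median log2 fold change of the members was 0.066 in AMO1, 0.020 in H929 and 0.0032 in LP1, against -0.016, -0.0096 and -0.0012 over all genes tested. The replicate letter was also used as a block, a pairing that the labels do not give. With it 2 members passed in AMO1, FTO and YTHDC1, where 6.08% of all genes did. Without the block, no member other than FTO and YTHDF2 passed in any line. These are bulk libraries, in which fewer cells of a type and less RNA per cell cannot be told apart.

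**Figure D1:**
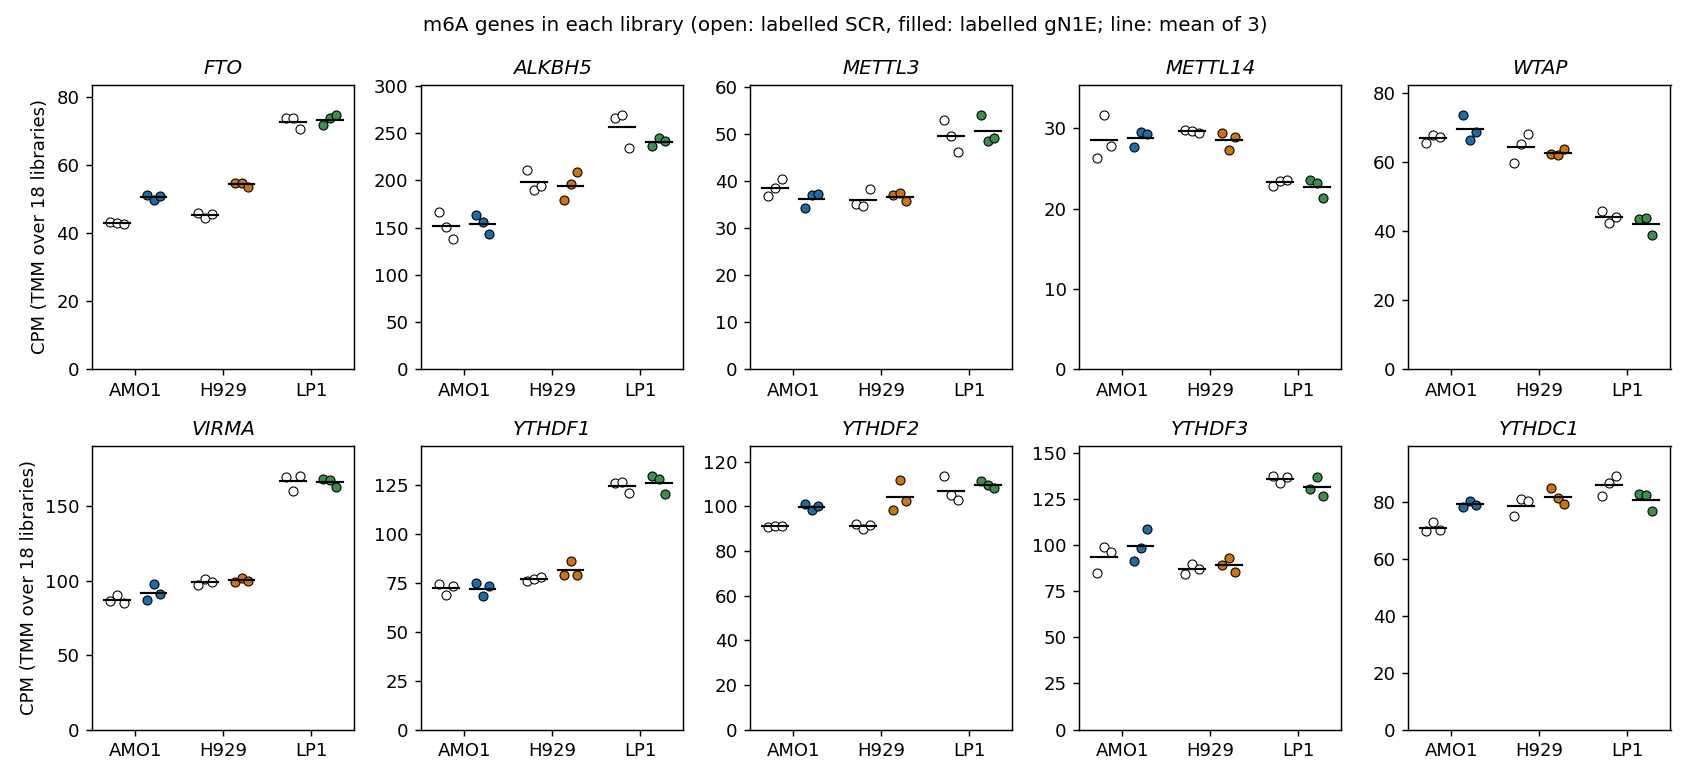
CPM of each member in each of the 18 libraries (vertical axis from 0, TMM over 18 libraries), by line label, with open points for libraries labelled SCR, filled points for those labelled gN1E and a line at each mean of 3. FTO lies at 42.5 to 43.2 CPM under SCR and at 49.6 to 51.3 CPM under gN1E in AMO1, while the LP1 points overlap.

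FTO (ENSG00000140718.21; hg38 chromosome 16, 53701692 to 54158512, plus strand) spans 456.8 kb and is a protein-coding gene. In the AMO1 libraries labelled SCR it was at 43.2, 42.9 and 42.5 CPM (letters A, C and D), and in those labelled gN1E at 51.3, 49.6 and 50.9 CPM. All gN1E libraries lay above all SCR libraries. Its log2 fold change was 0.24 (SE 0.061, adjusted p = 0.0428, edgeR's quasi-likelihood test after Benjamini-Hochberg adjustment), a rise of 18.1% with a 95% interval of 8.72% to 28.4%. The study chose FTO as a target in part on these AMO1 libraries, so this direction is not independent evidence. The labels do not say that replicate letters pair libraries, and a block by letter was taken from a likeness of same-letter AMO1 libraries in these data. With that block the adjusted p was 0.00366 from the same edgeR test. Without the block it was 0.0552 with limma-voom and 0.122 with scaling to library size alone, which both end the call. The unblocked call was lost with each of the 6 libraries left out in turn (adjusted p 0.0635 to 0.211), while the log2 fold change stayed between 0.23 and 0.26.

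In the libraries labelled H929, FTO was at 45.9, 44.4 and 45.4 CPM under SCR (letters A, B and C) and at 54.8, 54.7 and 53.4 CPM under gN1E. Here too the labels did not overlap. The log2 fold change was 0.25 (SE 0.052, adjusted p = 0.00285, edgeR's quasi-likelihood test after Benjamini-Hochberg adjustment), a rise of 18.9%, and the call held with any 1 library left out. In the libraries labelled LP1, FTO was at 73.8, 73.7 and 70.6 CPM under SCR (letters A, B and D) and at 71.7, 73.6 and 74.5 CPM under gN1E, with overlapping labels. The log2 fold change was 0.033 (SE 0.049, adjusted p = 0.835 in edgeR), and its 95% interval ran from -0.063 to 0.13.

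Whether the change of FTO differed between lines was tested by interaction terms in the joint model of 18 libraries. The AMO1 change exceeded that of LP1 by 0.23 (SE 0.069, adjusted p = 0.147) and the H929 change exceeded it by 0.25 (SE 0.069, adjusted p = 0.0827), both short of the threshold by edgeR's quasi-likelihood test after Benjamini-Hochberg adjustment. No member passed in these 2 contrasts, where 0.741% and 0.874% of genes did. In each, 2 members were at an unadjusted p under 0.05, where 2820 and 2664 of 26436 genes were. For AMO1 against LP1 another member differed more than FTO, by 0.25, and the smallest adjusted p of a member was 0.122 in the same edgeR test. DESeq2 called 2 and 1 members, FTO in both, where it called 1.97% and 1.45% of genes. With limma-voom FTO was called for H929 against LP1, where 0.704% of genes were. Between AMO1 and H929 the difference was -0.025 (SE 0.070), with 0% of genes called. There 0 members were at an unadjusted p under 0.05, where 1771 of 26436 genes were. The call for LP1 against either line depends on the tool, and both differences were 0.14 with scaling to library size alone, which shifted the members by a median of -0.085 and -0.11. With the offset for genomic span they were 0.092 for AMO1 (adjusted p = 0.698) and 0.11 for H929 (adjusted p = 0.638) in the same edgeR test.

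**Figure D2:**
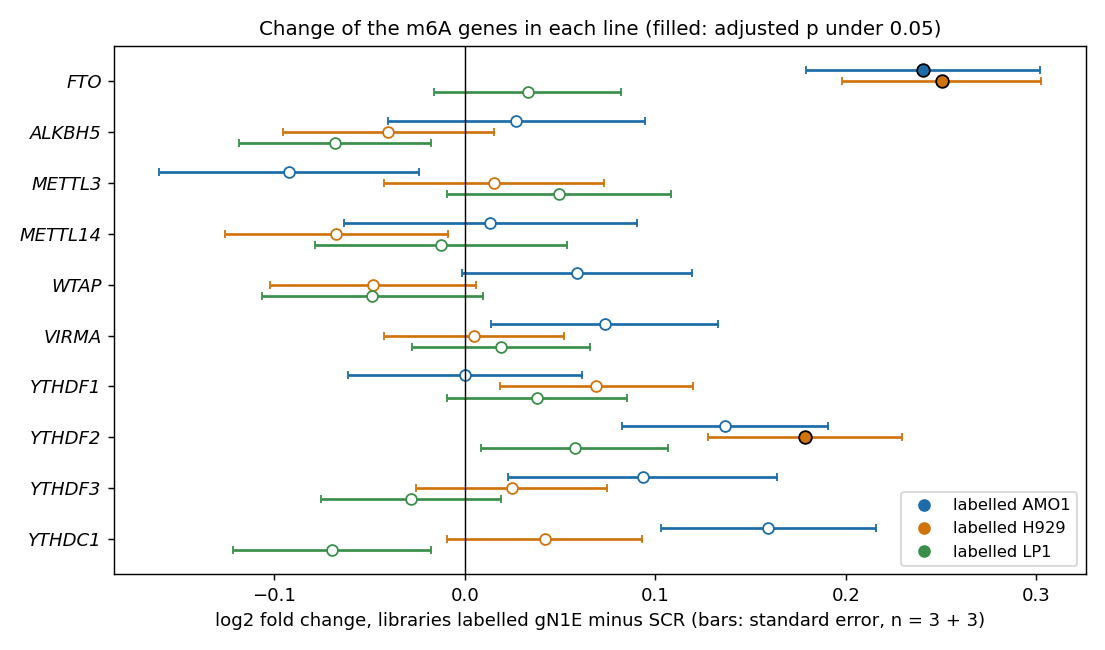
Log2 fold change of each member (horizontal axis, libraries labelled gN1E minus SCR; bars are SE, n = 3 + 3), by line label, with filled points for an adjusted p under 0.05. FTO in AMO1 (0.24) and H929 (0.25) and YTHDF2 in H929 (0.18) are filled, and FTO in LP1 stands at 0.033.

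FTO is by far the longest member in the genome: the other 9 span 13.2 to 65.8 kb. With each library's trend with span taken out as an offset, the log2 fold change of FTO was 0.12 in AMO1 (adjusted p = 0.448), 0.14 in H929 (adjusted p = 0.135) and -0.013 in LP1 (adjusted p = 0.943), by edgeR's quasi-likelihood test after Benjamini-Hochberg adjustment. The calls in AMO1 and H929 ended there. Among 190 expressed genes of at least 300 kb with no long match to the NEAT1 segment described below, the median log2 fold change was 0.077 in AMO1, 0.061 in H929 and 0.013 in LP1. Of these, 34, 29 and 85 lay above FTO in the same lines. Among the other genes of at least 300 kb, the numbers above FTO were 60, 64 and 107 of 198 with a run of 11 bases of that segment. They were 32, 37 and 34 of 71 with a run of 12, and 15, 17 and 18 of 27 with 13 or more. The segment that sets these classes was itself chosen by AMO1 fold changes. YTHDF2, which spans 33.2 kb, kept 0.18 in H929 under that offset (adjusted p = 0.0287 in edgeR).

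**Figure D3:**
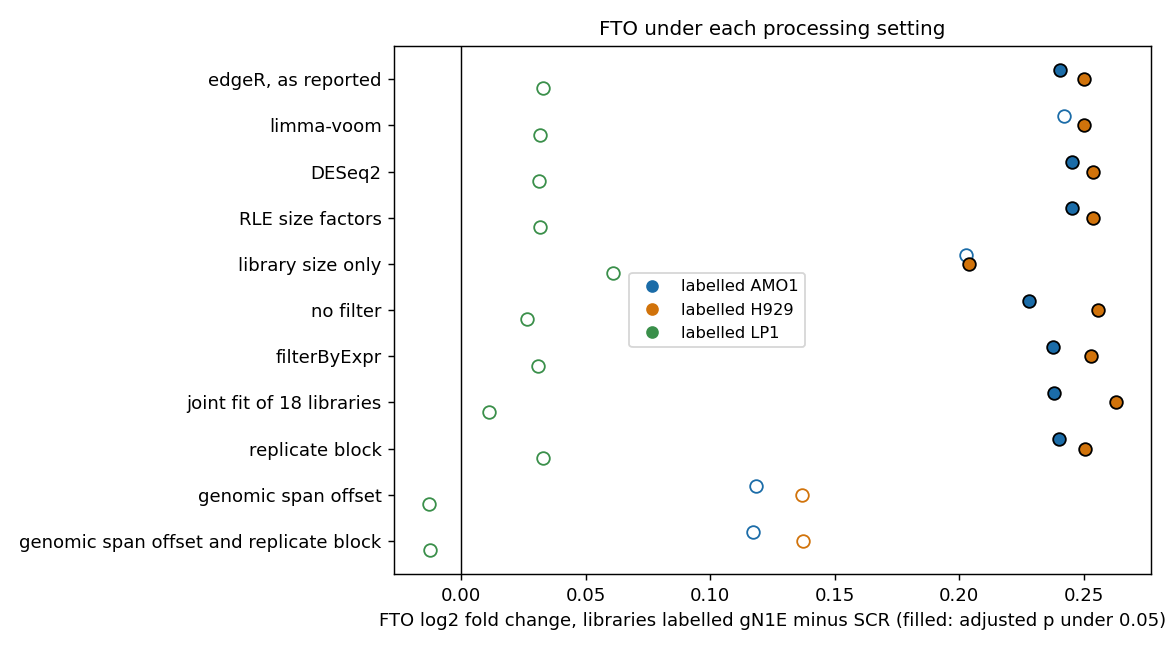
Log2 fold change of FTO (horizontal axis, libraries labelled gN1E minus SCR) under each processing setting (vertical axis), by line label, with filled points for an adjusted p under 0.05. In AMO1 and H929 the points lie between 0.20 and 0.26 under each setting other than the offsets for genomic span, where they lie between 0.12 and 0.14.

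ALKBH5, the other eraser, was the member with the highest CPM in each line and did not follow FTO. In AMO1 it was at 138 to 167 CPM under SCR and at 143 to 164 CPM under gN1E, and the labels overlapped in each line. Its log2 fold changes were 0.027 in AMO1, -0.040 in H929 and -0.068 in LP1, with adjusted p-values of 0.922, 0.775 and 0.616 by edgeR's quasi-likelihood test after Benjamini-Hochberg adjustment, and its sign in AMO1 and H929 turned with single libraries left out.

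The writers lay within 0.093 of 0 on the log2 scale in each line, and none passed the test. METTL3, the methyltransferase itself, was at 36.7 to 40.4 CPM in AMO1 under SCR and at 34.3 to 37.1 CPM under gN1E, a log2 fold change of -0.093 (SE 0.068, 95% interval -0.23 to 0.041). Its values in H929 and LP1 were 0.015 and 0.049. METTL14 had 0.013, -0.068 and -0.012 in AMO1, H929 and LP1. In H929, METTL14 was at 29.4 to 29.8 CPM under SCR and at 27.3 to 29.4 CPM under gN1E, without overlap, though the nearest 2 libraries were both at 29.4 CPM. WTAP had 0.059, -0.048 and -0.049, and VIRMA had 0.073, 0.0048 and 0.019. The 95% intervals of the writers reached at most 0.19 upward and 0.23 downward.

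Among the members, YTHDF2 was the one reader that passed the test in a line without the replicate block. It was at 90.9, 91.1 and 91.2 CPM under SCR and at 101, 98.5 and 100.2 CPM under gN1E in AMO1. The labels did not overlap, and the log2 fold change was 0.14 (SE 0.054, adjusted p = 0.284 by edgeR's quasi-likelihood test after Benjamini-Hochberg adjustment). In H929 it was at 92.2, 89.7 and 91.5 CPM under SCR and at 98.4, 112 and 102 CPM under gN1E, and the labels again did not overlap. There the log2 fold change was 0.18 (SE 0.051, adjusted p = 0.0365 by edgeR's quasi-likelihood test after Benjamini-Hochberg adjustment), a rise of 13.2%. The call was lost without SCR A (adjusted p = 0.107), SCR B (0.110) or gN1E B (0.267), and with limma-voom (0.0654), scaling to library size alone (0.155) or the replicate block (0.0821 alone and 0.0782 with the span offset). In LP1 YTHDF2 overlapped between labels, at 103 to 114 CPM under SCR and 108 to 112 CPM under gN1E, with a log2 fold change of 0.058 (SE 0.049).

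YTHDC1, the nuclear reader, was at 69.9, 72.7 and 70.1 CPM under SCR and at 78.0, 80.3 and 78.8 CPM under gN1E in AMO1, without overlap. Its log2 fold change there was 0.16 (SE 0.056, adjusted p = 0.210), and with the replicate letter as a block it passed (adjusted p = 0.0480), both by edgeR's quasi-likelihood test after Benjamini-Hochberg adjustment. In H929 and LP1 the values were 0.042 and -0.069, and the labels overlapped. YTHDF1, linked to translation of marked RNA, had 0.0003, 0.069 and 0.038 in AMO1, H929 and LP1, and its sign in AMO1 turned under several settings. Its H929 libraries did not overlap, at 75.8 to 77.7 CPM under SCR and 78.8 to 86.1 CPM under gN1E. YTHDF3 had 0.093, 0.025 and -0.028.

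Counting libraries without overlap, 3 members in AMO1 (FTO, YTHDF2, YTHDC1) were higher under gN1E, where 9.17% of all genes tested were higher and 17.7% did not overlap in either direction. In H929, 3 members (FTO, YTHDF1, YTHDF2) were higher and METTL14 was lower, against 21.7% of all genes (12.2% higher and 9.57% lower). In LP1 no member was without overlap, against 18.1% of all genes. With 3 libraries against 3, a two-sided exact permutation test gave p = 0.1 for each of these members, the smallest that it can give.

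Averaged over the 3 line labels in a joint fit of 18 libraries, FTO had a log2 fold change of 0.17 (SE 0.028, adjusted p = 7.48e-05) and YTHDF2 one of 0.12 (SE 0.029, adjusted p = 0.00747), by edgeR's quasi-likelihood test after Benjamini-Hochberg adjustment. These were 2 of 10 members, where 6.61% of 26436 genes were called (3.9% higher and 2.7% lower), and the other 8 averages lay between -0.031 and 0.040. The libraries labelled AMO1 and H929, not counted as independent of each other, both enter this average as separate lines. Without the libraries labelled H929, added after seeing the data, FTO had 0.12 (adjusted p = 0.0412) and YTHDF2 0.085 (adjusted p = 0.241) in the same edgeR test. AMO1, which stays in that fit, is the line on which the study in part chose FTO. Under the offset for span the average of FTO was 0.047 (adjusted p = 0.381), while that of YTHDF2 was 0.12 (adjusted p = 0.00415).

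The balance between FTO and each other member was read as the log2 ratio of their CPM in each library, with no test. In AMO1 the mean ratio was higher under gN1E for all 9 others, by 0.080 (against YTHDC1) to 0.33 (against METTL3). In H929 it was higher for all 9, by 0.073 (against YTHDF2) to 0.32 (against METTL14). In LP1 the differences ran from -0.025 to 0.10. All 9 ratios share the values of FTO, so they restate its rise and are not 9 separate results.

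Over 18 libraries, with log2 CPM centred on each line, FTO had a Pearson r of 0.856 with YTHDF2, 0.53 with YTHDC1 and from -0.212 (METTL14) to 0.362 (YTHDF1) with the other 7 members. The r of FTO with NEAT1 was 0.861. Among 10969 genes with a mean of at least 5 CPM, the 5 most like FTO were DOCK4 (0.975), PPP3CA (0.973), NOP9 (0.972), ROBO1 (0.97) and MYLK (0.968). Of these, 4 span 274.3 to 1170.8 kb and NOP9 spans 9.3 kb. PXDN (-0.914) and DDB2 (-0.909) were least like it. These r share the libraries, their depth and the labels, and describe the points only.

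Per length, FTO was among the 2 lowest members in each line. Counts were divided by the merged exon length of each gene and scaled to the same total (TPM), and FTO has the longest merged exons of the set, 21.38 kb against 3.21 to 10.78 kb, which lowers its TPM relative to transcripts that use few of them. Over 6 libraries per line, ALKBH5 was highest, at 134 ± 10.6 TPM (SD, n = 6) in AMO1, 172 ± 17.7 TPM in H929 and 187 ± 14.5 TPM in LP1. FTO was lowest in AMO1, at 6.88 ± 0.615 TPM, and in H929, at 7.33 ± 0.60 TPM. In LP1 FTO, at 9.25 ± 0.523 TPM, could not be ordered against METTL14, at 9.11 ± 0.512 TPM, since their ranges overlapped. The YTHDF readers held the next 3 places in each line, from 45.1 TPM (YTHDF3 in H929) to 106 TPM (YTHDF1 in LP1). Other neighbours whose ranges overlapped were YTHDC1 and WTAP in AMO1, and YTHDF2 and YTHDF1, YTHDC1 and WTAP, and WTAP and VIRMA in H929.

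**Figure D4:**
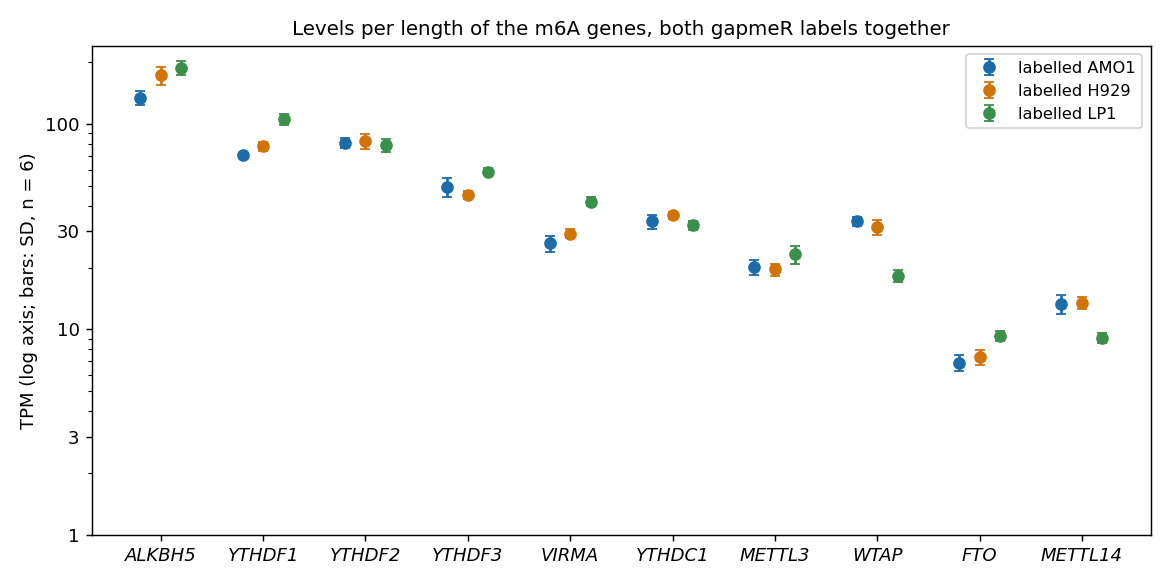
TPM of each member (vertical log axis; points are means and bars are SD over 6 libraries, both labels together), by line label, ordered as in LP1. ALKBH5 is highest at 134 to 187 TPM, and FTO and METTL14 are lowest at 6.88 to 13.4 TPM.

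The levels of the members also differed between the line labels, with both gapmeR labels pooled. Between AMO1 and LP1, all 10 members passed the threshold, where 75.9% of all genes did (37.9% higher and 37.9% lower in AMO1). FTO was 1.57 times higher in LP1 (log2 difference AMO1 minus LP1 -0.65, SE 0.035, adjusted p = 5.43e-18), VIRMA 1.86 times, YTHDF1 1.73 times and ALKBH5 1.63 times, by edgeR's quasi-likelihood test after Benjamini-Hochberg adjustment. The size for FTO depends on the processing: over the other settings its log2 difference ran from -0.78 to -0.47, and its call held in each. WTAP and METTL14 went the other way, 1.59 and 1.25 times higher in AMO1. METTL3 (1.34 times), YTHDF3 (1.39 times), YTHDF2 (1.14 times) and YTHDC1 (1.11 times) were higher in LP1, and with scaling to library size alone, which moved the members by a median of 0.18 toward AMO1, the sign of YTHDC1 turned and the difference of YTHDF2 was -0.0020 and no longer called (adjusted p = 0.965 in edgeR).

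Between the libraries labelled H929 and LP1, 9 members passed, where 74.6% of genes did (38.4% higher and 36.2% lower in H929), with WTAP (1.48 times) and METTL14 (1.27 times) higher in H929 and the other 7 higher in LP1. The exception was YTHDC1 (-0.055, adjusted p = 0.170 in edgeR), whose call depends on the setting: it was lower in H929 with DESeq2 (adjusted p = 0.00761), RLE size factors (0.0144) and the span offset (0.0322), and higher with library size alone (0.14, adjusted p = 0.00149). Scaling to library size alone (a median shift of 0.19 toward H929) turned the signs of YTHDC1 and YTHDF2. Between AMO1 and H929, 7 members passed, where 44.4% of genes did (21.2% higher and 23.2% lower in AMO1), with smaller differences. The largest was ALKBH5, 1.28 times higher in H929 (log2 difference AMO1 minus H929 -0.36, SE 0.048, adjusted p = 4.11e-07 by edgeR's quasi-likelihood test after Benjamini-Hochberg adjustment), and FTO was 1.06 times higher there. The count was 4 to 7 with 1 library left out. Of these 18 fits, the call of FTO held in 11, that of WTAP in 12, that of YTHDC1 in 14 and that of YTHDF3 in 17. WTAP also lost its call with scaling to library size alone (adjusted p 0.060 in edgeR) and with no filter (0.175).

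A further 22 m6A genes (writer subunits, enzymes of other sites, readers and MAT2A, which makes the methyl donor) were counted in the same fits. In AMO1, 1 of 22 was higher under gN1E and none lower, where 2.06% of all genes were called. In H929, 3 were higher and none lower, where 5.47% were called. In LP1 none passed in edgeR (0 also in DESeq2 and limma-voom), where 1.43% of all genes were called. There 3 were at an unadjusted p under 0.05, as were 3018 of all 23165 genes tested. In the average over lines 5 were higher and 1 lower, where 6.61% were called. Their median log2 fold change was 0.092 in AMO1, 0.089 in H929 and 0.012 in LP1, against -0.016, -0.0096 and -0.0012 over all genes tested.

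LRPPRC, an RNA-binding protein of mitochondria that has been listed as an m6A reader, had the largest rise, a log2 fold change of 0.37 in AMO1 (SE 0.052, adjusted p = 0.000147) and 0.31 in H929 (SE 0.050, adjusted p = 9.45e-05) by edgeR's quasi-likelihood test after Benjamini-Hochberg adjustment. In LP1 its value was 0.13 (adjusted p = 0.209 in edgeR). RBM15, which brings the writer complex to RNA, rose by 0.20 in H929 (adjusted p = 0.00942), and MAT2A by 0.21 there (adjusted p = 0.0162). Both calls in H929 were lost with scaling to library size alone (adjusted p 0.0661 and 0.0649) and without gN1E B, that of RBM15 at 0.0837, and that of MAT2A also without SCR A or SCR B (up to 0.185). In the average, IGF2BP3 (0.093) and RBMX (0.085) joined LRPPRC (0.27), RBM15 (0.13) and MAT2A (0.13), while HNRNPC, a splicing regulator that binds RNA opened by m6A, fell by 0.12 (adjusted p = 0.00344, edgeR's quasi-likelihood test after Benjamini-Hochberg adjustment). Of these calls in the average, that of IGF2BP3 held in 7, that of RBMX in 6 and that of MAT2A in 12 of the 18 fits that leave out 1 library. Those of IGF2BP3 and RBMX were also lost with scaling to library size alone or with no filter, and that of IGF2BP3 with the offset for span (0.043, adjusted p = 0.393 in edgeR). Without the libraries labelled H929, LRPPRC and HNRNPC alone among these 6 still passed. With the replicate letter as a block, LRPPRC, MAT2A, RBMX and HNRNPC passed in AMO1, where that fit called 6.08% of all genes.

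The genes beside FTO on chromosome 16 were CHD9, RBL2, AKTIP, RPGRIP1L, IRX3, IRX5 and IRX6, of which 5 to 6 passed the filter in each fit. None was called in any line or in the average by edgeR, DESeq2 or limma-voom. In edgeR 1 was at an unadjusted p under 0.05, CHD9 in H929, where 4156 of 23499 genes tested were. With the span offset CHD9 passed in H929 (-0.18) and in the average (-0.12). Adding the replicate block to that offset ended the H929 call (adjusted p = 0.0613 in edgeR) but not that in the average (0.0113). CHD9, which spans 274.2 kb, had log2 fold changes of 0.036, -0.10 and -0.020 in AMO1, H929 and LP1, and RPGRIP1L, the gene next to FTO on the other strand, had -0.17 in AMO1. The lowest value was that of IRX5 in AMO1, -0.38 (SE 0.22, adjusted p = 0.524 in edgeR), at 1.54 to 1.78 CPM under SCR and 0.917 to 1.53 CPM under gN1E, without overlap.

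Sequence shared with NEAT1 was also read from hg38. Among stretches of 11 bases of NEAT1, scored by the AMO1 fold changes of other genes that hold them on the transcribed strand within their gene bounds and with the members left out, the top one was held by 266 of 14907 genes, whose mean log2 fold change was 0.29 above genes of like span. It lies in a NEAT1 segment of 16 bases at chr11:65425850-65425865 (plus strand). The score and the bounds of the segment were set after seeing these data. The segment is shown with its top-scoring 11 bases in capitals. The lines named FTO, YTHDF2, YTHDF1 and LRPPRC repeat this NEAT1 segment, with the longest run that each gene shares with it in capitals. The small letters in those lines are bases of NEAT1 and not of the gene named.
NEAT1: cttTTGTGGTCACTgt
FTO: CTTTTGTGGTcactgt
YTHDF2: cTTTTGTGGTCactgt
YTHDF1: cttTTGTGGTCACtgt
LRPPRC: ctTTTGTGGTCACTgt

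The longest run was 8 to 10 bases in the 10 members, and no member held 11 or more. FTO, YTHDF2 and YTHDF1 held 10. Only the first run of the greatest length found in each gene was placed, so others of that length may lie in its introns or exons. In FTO, YTHDF2 and YTHDF1 the run placed was within an intron, that of FTO at chr16:53771996-53772005. LRPPRC held 12 in an exon, at chr2:43890180-43890191 on the minus strand, METTL16 held 12 in an intron, and IGF2BP3 and ELAVL1 held 11. The runs of LRPPRC and IGF2BP3 include the top-scoring 11 bases. Neither gene is among the members left out of the scoring, so these runs are not independent of it. Of genes of at least 300 kb, those with a run of 13 or more (27 genes) showed medians on the log2 scale of 0.41 in AMO1, 0.41 in H929 and 0.12 in LP1, against 0.077, 0.061 and 0.013 for those with 10 or fewer, the class that FTO belongs to. Those with a run of 11 (198 genes) had medians of 0.14, 0.13 and 0.045, and those with 12 (71 genes) 0.18, 0.27 and 0.043. AMO1 chose the segment and the libraries labelled H929 are not independent of it, so the values in both are a description, and whether shared sequence had a part in any member's change was not tested.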

How the data were processed

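RNA was measured in 18 libraries (TruSeq Stranded Total RNA, paired reads of 150 bases). The authors aligned reads to hg38 with STAR 2.7.10a and deposited raw counts per gene, made with featureCounts 1.6.4 on GENCODE release 43, with read pairs counted by strand and not normalized. Of the 62703 genes in each table, 62639 were given a symbol, and no row lacks a gene. Depth was 28061606 to 69937229 counts. FTO had at least 1459 counts per library, where counting error is about as large as the spread between replicates.

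Libraries were grouped by GEO's labels. Each line was fitted separately with edgeR 4.0.16 (TMM, robust quasi-likelihood, Benjamini-Hochberg over all genes tested, threshold 0.05, at least 10 reads in at least 1 library) in R 4.3.3, and averages, interactions and line levels came from a joint fit. CPM used TMM over 18 libraries. Intervals of 95% are 1.96 standard errors.

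The genes named were all members, NEAT1, other m6A genes and genes beside FTO that pass in any line or the average, and the 5 most and 2 least like FTO. IGHV3-23, CHD9, RPGRIP1L, IRX5, METTL16 and ELAVL1 were named after their values were seen. The members and lists were chosen with earlier results of these data known. Deviations of same-letter libraries correlated at 0.224, 0.203 and 0.147 in AMO1, but not all above 0.1 in the lines labelled H929 and LP1. Those of different letters reached 0.0976 in AMO1, 0.123 in H929 and 0.153 in LP1. The labels give no pairing, so the block in AMO1 rests on these data alone. Alternatives were limma-voom (limma 3.58.1), DESeq2 1.42.0, RLE factors, library size only, other filters, a replicate block, a span offset, a joint fit, a threshold of 0.1 combined with a fold of 1.5, and leaving out each library.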

Additional observations from a re-analysis of the deposited data

How the results depend on the processing

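Of 2772 recomputed values, 2512 kept their direction and side of the threshold, 48 changed sign, 125 lost and 15 gained a call, and 72 counts moved by over 1.5 times. The cause was not tested unless the setting itself gives it. FTO kept its direction in AMO1, H929 and the average throughout. Several members with changes below 0.1 turned sign, as listed here, and 3 libraries per label limit what can be called.

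With an adjusted p under 0.1 and a 1.5-fold change, 0 members and 0 other m6A genes passed in AMO1, H929 and the average (FTO at 0.24, 0.25 and 0.17 falls short of the fold), all genes fell to 176, 369, 102 and 359 in AMO1, H929, LP1 and the average (from 473, 1286, 332 and 1747), and members differing in level to 0 (AMO1 and H929), 5 (AMO1 and LP1) and 3 (H929 and LP1).
With limma-voom, members called were 0 in AMO1 (FTO lost at 0.24, adjusted p 0.0552), 1 in H929 (YTHDF2 lost, adjusted p 0.0654) and 1 for the difference of H929 and LP1 (FTO 0.25). DESeq2 called 2 members for AMO1 against LP1 and 1 for H929 against LP1 (FTO 0.24 in both), gave FTO 0.0027 for AMO1 against H929 (RLE factors 0.0015) and called 512 genes in LP1. Without a filter on low counts, 808 genes passed in AMO1 and 700 in LP1.

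With library size only, 0 members passed in AMO1 (FTO lost at 0.20, adjusted p 0.122) and 1 in H929 (YTHDF2 lost, adjusted p 0.155), with 1 other m6A gene there (LRPPRC). Signs turned for ALKBH5 (-0.010), METTL14 (-0.026) and YTHDF1 (-0.037) in AMO1, METTL3 (-0.031), VIRMA (-0.041), YTHDF3 (-0.022) and YTHDC1 (-0.0044) in H929, METTL14 (0.016) and RBMX (0.0069) in LP1, and the levels of YTHDC1 (0.030 AMO1 minus LP1, 0.14 H929 minus LP1) and YTHDF2 (0.037 H929 minus LP1). YTHDF1 in AMO1 was -0.0024 with filterByExpr, -0.0020 in the joint fit, -0.012 unfiltered and -0.00093 with the block. VIRMA in LP1 was -0.0024 in the joint fit.

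With the replicate block, 2 members, 4 other m6A genes and 1394 genes passed in AMO1 and 1 member in H929 (YTHDF2 lost, adjusted p 0.0821 in edgeR). In H929 same-letter libraries did not correlate above 0.1. No other call of a member by line changed with the block. The offset for genomic span gave 0 members in AMO1 (FTO lost at 0.12), 1 in H929 (YTHDF2, with FTO lost at 0.14) and 1 in the average (YTHDF2, with FTO lost at 0.047), turned FTO in LP1 (-0.013) and METTL3 in the average (0.0021), and called 1 neighbour, CHD9, in H929 and 1 in the average. The offset with the replicate block gave 0 members in AMO1 (FTO lost at 0.12, 6 other m6A genes, 1203 genes), 0 in H929 (FTO lost at 0.14, 848 genes), FTO -0.012 and 169 genes in LP1, and 1 member in the average (YTHDF2, with FTO lost at 0.047, METTL3 0.0031, 1 neighbour). Without the libraries labelled H929, added after seeing the data, the average called 1 member, 2 other m6A genes and 789 genes.

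With 1 library left out, members called were 0 in AMO1, 1 to 2 in H929 and 2 in the average, and 4 to 7 for levels of AMO1 and H929. Other m6A genes called were 1 to 4 in H929 and 3 to 6 in the average. All genes called were 254 to 606 in AMO1, 701 to 1272 in H929, 87 to 780 in LP1 and 1382 to 1852 in the average. FTO in AMO1 was 0.23 to 0.26 and NEAT1 in LP1 2.00 to 2.25. Ranges that held both signs were, in AMO1, ALKBH5 -0.035 to 0.11, METTL14 -0.038 to 0.093 and YTHDF1 -0.033 to 0.040. In H929 they were ALKBH5 -0.093 to 0.016, METTL3 -0.013 to 0.062, VIRMA -0.0076 to 0.016 and YTHDF3 -0.0012 to 0.056. In LP1 they were METTL14 -0.041 to 0.027, WTAP -0.080 to 0.00078, VIRMA -0.012 to 0.043 and MAT2A -0.030 to 0.062. In the average they were METTL3 -0.030 to 0.0033, METTL14 -0.045 to 0.00055 and WTAP -0.034 to 0.0016, and METTL14 AMO1 minus H929 ran from -0.058 to 0.0097.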
